A study of Mus musculus with 473 samples.

Results

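E15.FB.1 is the larger of the 2 clusters into which the study's authors sorted the forebrain neurons of Th:EGFP mouse embryos at embryonic day 15.5. Its members are the columns of the deposited expression table whose sample label assigns them to that cluster. They number 60 of the 473 cells of the series and 71.4% of the 84 forebrain cells of that age that passed quality control, out of 93 sorted. The other 24 forebrain cells form E15.FB.2, which serves here as the background. The midbrain clusters of the same age, E15.MB.1 with 68 cells and E15.MB.2 with 20, are used where a level needs a second reference.

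Every mouse in these groups carried the Tg(Th-EGFP)DJ76Gsat bacterial artificial chromosome, in which regulatory sequences of Th drive EGFP, on an outbred Swiss Webster background, and no group received a treatment. The forebrain dissection at this age is given in the labels as hypothalamus. Tissue of 4 EGFP-positive embryos was pooled, dissociated and sorted by fluorescence, with propidium iodide used to leave out dead cells, and single cells were turned into Smart-Seq2 libraries. These are full-length poly(A) cDNA libraries that carry no molecular identifiers. The forebrain and midbrain cells shared 2 library plates, TH01_14.15 and TH01_15.14, and both forebrain clusters were present on each: 29 and 31 cells of E15.FB.1, 14 and 10 of E15.FB.2. All cells thus stand for 1 pool of embryos, and the clusters were drawn by the authors from the same values that are described here. The cells are not replicates, so the differences between clusters are given with their spread over cells and with no test, and the plates show only whether a difference appeared in both preparations.

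As background, Th encodes tyrosine hydroxylase, the enzyme that limits the rate of dopamine production, and the developing hypothalamus and neighbouring forebrain hold several groups of neurons that switch it on. Many of these neurons also make GABA, whose synthesis depends on Gad1 and Gad2, and Dlx homeobox factors are known to promote that fate in the embryonic forebrain. Glutamatergic neurons of the diencephalon are recognised by the vesicular transporter Slc17a6. A Th reporter in the embryo also marks cells that use the gene only for a time.

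The 4 genes given as markers of the cluster act at the surface, in the cytoskeleton and in calcium signalling of young neurons. Rnd3 is an atypical small GTPase that relaxes actin and is used by migrating neurons. Dcc is the netrin-1 receptor that steers growing axons, Vsnl1 is the neuronal calcium sensor visinin-like 1, and Tmtc4 belongs to a family of membrane proteins of the endoplasmic reticulum that attach mannose to cadherins. On GRCm38 the gene models of 3 of them, from GENCODE, were Rnd3 at chr2:51130438-51149111 on the minus strand, Vsnl1 at chr12:11325242-11436613 on the minus strand and Tmtc4 at chr14:122918971-122984035 on the minus strand.

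The 250 bases just before a start site are given for 3 of these markers, because their levels set the cluster apart from E15.FB.2. They are read 5′ to 3′ on the strand of the gene from RefSeq (build GRCm38.p6). For Vsnl1 and Tmtc4 the first of 2 listed start sites is shown. The windows lie at chr2:51149112-51149361 for Rnd3, chr12:11436579-11436828 for Vsnl1 and chr14:122983284-122983533 for Tmtc4, all on the minus strand. The RefSeq starts can differ from the GENCODE models given above. The Tmtc4 window lies inside its GENCODE model, and the Vsnl1 window overlaps the edge of its own. Capitals mark matches on either strand to TAATTA, a core recognised by many homeodomain factors including the Dlx proteins, or to CANNTG, the E-box recognised by basic helix-loop-helix factors. A CANNTG match begins with C and ends with G, letters that TAATTA lacks, so matches to the 2 motifs cannot overlap.
Rnd3: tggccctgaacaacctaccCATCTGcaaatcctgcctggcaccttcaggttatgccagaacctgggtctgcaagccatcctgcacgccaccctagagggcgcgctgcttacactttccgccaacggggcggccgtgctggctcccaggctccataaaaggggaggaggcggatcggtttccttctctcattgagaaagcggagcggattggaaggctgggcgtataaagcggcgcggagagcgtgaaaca
Vsnl1: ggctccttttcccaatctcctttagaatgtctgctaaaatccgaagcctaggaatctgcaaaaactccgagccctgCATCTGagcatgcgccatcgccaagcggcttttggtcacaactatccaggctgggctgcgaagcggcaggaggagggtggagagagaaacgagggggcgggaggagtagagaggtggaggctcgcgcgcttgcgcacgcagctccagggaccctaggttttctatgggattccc
Tmtc4: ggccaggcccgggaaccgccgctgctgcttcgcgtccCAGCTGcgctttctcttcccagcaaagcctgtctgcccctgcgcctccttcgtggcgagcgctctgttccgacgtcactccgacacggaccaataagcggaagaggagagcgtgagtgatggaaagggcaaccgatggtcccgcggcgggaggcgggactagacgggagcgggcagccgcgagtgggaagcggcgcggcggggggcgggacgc
Each of the 3 windows shown held 1 E-box, of the form CATCTG for Rnd3 and Vsnl1 and CAGCTG for Tmtc4. The second listed windows of Vsnl1 and Tmtc4, which are not shown, held neither motif. Among all 32851 windows of that length, of 27025 genes, 66.2% held a CANNTG match and 4.84% a TAATTA match. These matches describe the letters only.

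Rnd3 was present at high level in most cells of E15.FB.1 and nearly absent from E15.FB.2. FPKM are fragments scaled by transcript length and for each cell, the latter in a way that the sources do not give. The deposited FPKM of Rnd3 was 334 ± 565 (mean ± SD over 60 cells). Its lowest cell was at 0, the median at 121 and the highest at 2763. In the 24 cells of E15.FB.2 it was 0.0623 ± 0.305 with a highest value of 1.50. A gene is called found in a cell here at an FPKM of at least 1. By that measure Rnd3 was found in 48 cells of E15.FB.1 (80%, exact 95% interval 67.7 to 89.2%, which covers counting error only) and in 1 of E15.FB.2, and all 48 lay above the highest cell of E15.FB.2. The other 12 cells of E15.FB.1 were listed at 0, so the clusters overlapped only in cells without the transcript. The difference in level was 8.30 as log2 of the ratio of the means, each with 1 FPKM added, a scale that understates changes of low genes. It was 8.73 and 7.78 on plates TH01_14.15 and TH01_15.14.

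Dcc was listed at 0 in every cell of E15.FB.2, which at 24 cells allows a share of up to 14%. In E15.FB.1 it averaged 53.3 ± 81.0 FPKM, with a median of 18.3 and a highest cell at 379, and was found in 38 cells (63.3%, 49.9 to 75.4%). Its gene model spans chr18:71253634-72351069 on the minus strand of GRCm38. Since 1 of the groups was at 0, no fold is given. Vsnl1 averaged 83.0 ± 176 FPKM in E15.FB.1, from 0 through a median of 10.5 to 867, and 1.36 ± 3.73 in E15.FB.2, where the highest cell reached 13.1. It was found in 33 cells (55%, 41.6 to 67.9%) against 4, and 29 cells of E15.FB.1 exceeded every cell of E15.FB.2; the log2 difference was 5.15 (4.36 and 6.36 by plate). Tmtc4 averaged 60.4 ± 105 FPKM, from 0 through 3.50 to 445, against 0.0445 ± 0.218 with a highest value of 1.07. It was found in 32 cells (53.3%, 40.0 to 66.3%) against 1, and the log2 difference was 5.88 (6.18 and 5.52 by plate).

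No marker covered the whole cluster, but together they did so almost completely. Of the 60 cells, 1 held none of the 4 transcripts, 9 held 1, 18 held 2, 22 held 3 and 10 held all 4. In E15.FB.2, 19 cells held none, 4 held 1 and 1 held 2. Rnd3 and Dcc, for instance, were found together in 30 cells, which is 62.5% of those with Rnd3 and 78.9% of those with Dcc (a pair chosen after the values were seen). The same transcripts were common in the midbrain. In the midbrain cluster E15.MB.1 Rnd3 averaged 124 ± 154 FPKM in 57 of 68 cells, Dcc 67 ± 139 in 48, Vsnl1 119 ± 229 in 49 and Tmtc4 75.3 ± 94.2 in 50. In that cluster 55 of the 68 cells held 3 or 4 of the markers.

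**Figure D1:**
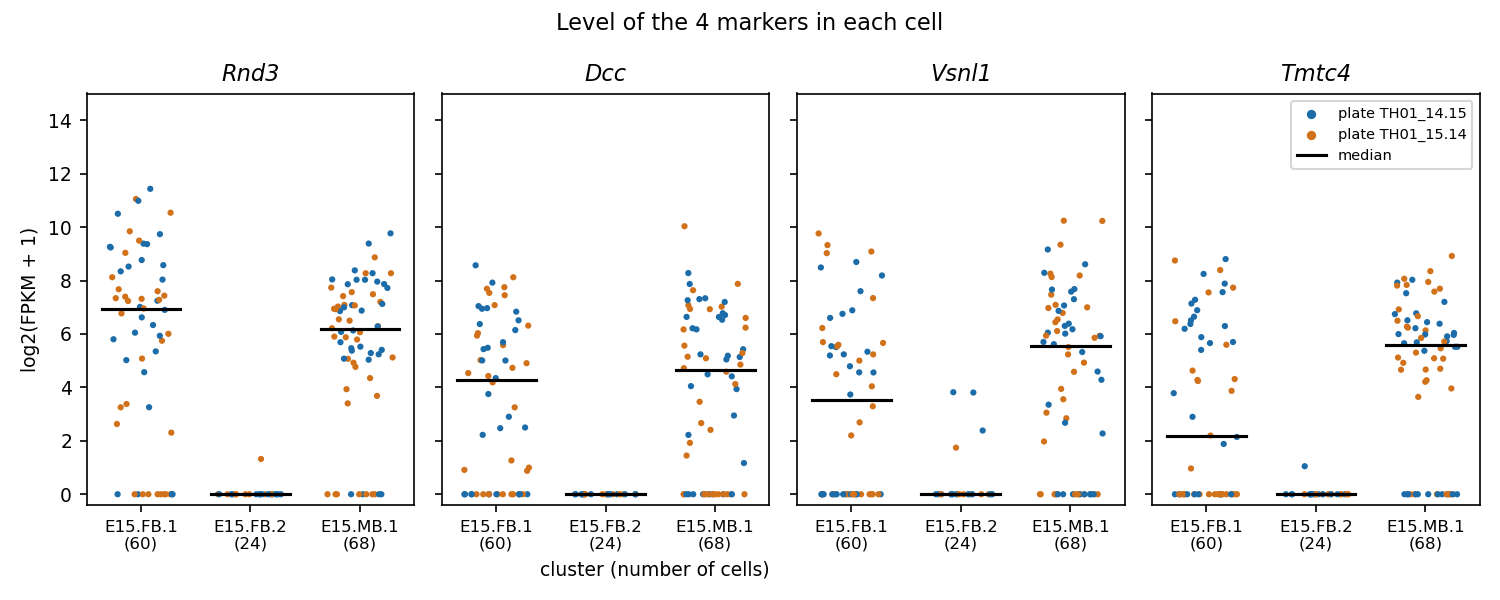
Level of the 4 markers in every E15.5 cell of E15.FB.1 (60 cells), E15.FB.2 (24 cells) and E15.MB.1 (68 cells), as log2(FPKM + 1); points are cells coloured by library plate and bars are medians. Rnd3, Dcc, Vsnl1 and Tmtc4 spread from 0 to high levels in E15.FB.1 and E15.MB.1 on both plates and stay at or near 0 in E15.FB.2.

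Across all genes, 14020 had a mean FPKM of at least 1 in either forebrain cluster. Of these, 3085 (22.0%) were at least 2-fold higher in E15.FB.1 and 1717 (12.2%) at least 2-fold lower, with a median log2 difference of 0.02 over all. Of the higher genes, 1407 were listed at 0 in E15.FB.2 and 1937 were found in under 20% of the E15.FB.1 cells, and 330 (10.7%) were found in at least 50% of them. Of the lower genes, 189 were listed at 0 in E15.FB.1, 855 were found in under 20% of the E15.FB.2 cells, 349 (20.3%) were found in at least 50% of the E15.FB.2 cells, and 23 were found in all 24. A value of 0 over 24 cells is reached more easily than over 60. By plate, 2426 of the higher and 1001 of the lower genes kept their direction on both, at any size. The number of genes found per cell moved with the contrast. E15.FB.1 cells had a median of 5859.5 genes in the labels (3204 to 7918) and E15.FB.2 cells 5028 (3798 to 6430). When only cells with 4500 to 6000 genes were kept (27 and 19 cells), 2672 genes were higher and 2448 lower, so that 52.2% of the differing genes were higher, against 64.2% in all cells. The number of reads per cell is not known from these values.

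The 25 genes most clearly higher in E15.FB.1 were chosen by size among those found in at least 50% of its cells, with the same direction on both plates. They had means of 20.6 to 413 FPKM in E15.FB.1 and 0 to 25.4 in E15.FB.2. Beyond the markers they held synapse and adhesion genes. Gria1, a subunit of AMPA-type glutamate receptors, averaged 219 ± 314 FPKM (0 to 1865, median 112) and was found in 48 cells, against 6.74 ± 28 and 2 cells in E15.FB.2, a log2 difference of 4.83. Tenm4, a teneurin that links contacting neurons, averaged 60 ± 85.9 FPKM in 34 cells against 1.69 ± 8.27 in 1 cell. Lingo2 and Lrfn5, leucine-rich repeat proteins of the neuronal surface, were higher by 4.01 and 3.08 on the log2 scale, and Cdh13, a cadherin anchored to the membrane by lipid, by 2.96. Fgf14, an intracellular partner of sodium channels, was higher by 3.59, and Syt4, a synaptotagmin of secretory vesicles, by 2.98.

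RNA-binding and signalling genes completed the set. Nova1, which regulates alternative splicing in neurons, was the most widely found of the 25: it averaged 80.4 ± 87.8 FPKM (0 to 474, median 59.5) in 54 cells (90.0%) of E15.FB.1 and 7.5 ± 18.0 in 8 cells of E15.FB.2, a log2 difference of 3.26. Celf6, a splicing regulator of another family, averaged 71.6 ± 94.7 FPKM in 39 cells against 4.90 ± 17.8 in 3. Rit2, a Ras-like GTPase of neurons, was higher by 4.11, Gng4, a G-protein gamma subunit, by 3.01 and Akap12, an anchor for protein kinase A, by 3.16. Spint2, a serine protease inhibitor, was higher by 3.46 and Klhl13, a ubiquitin ligase adaptor, by 3.15. Pcp4, a calmodulin-binding peptide, averaged 413 ± 1369 FPKM in 30 cells, but 37.2% of that sum came from 1 cell; its log2 difference was 4.34 with all cells and 4.56 without the highest cell of each cluster. Dlx6os1, a long noncoding RNA that overlaps Dlx6 on the opposite strand, averaged 86.8 ± 171 FPKM in 32 cells against 4.51 ± 12.9 in 4, and reads of the 2 genes may not be separable since the strand handling of the libraries is not stated. Fam84a, Mpped2, Rnf112, 2210016F16Rik and Csmd3 were the others, higher by 6.10, 4.27, 3.13, 2.95 and 2.84. Of the 25, 24 were found in at least 40% of the E15.MB.1 cells, and the exception was Dlx6os1, found in 6 of 68. The share over all genes is not given for this measure, and E15.MB.1 cells had more genes in the labels (median 6398.5). The count is therefore not read as a trait of these 25 genes.

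The 25 genes most clearly lower in E15.FB.1 had means of 26.3 to 1339.8 FPKM in E15.FB.2 and 0.439 to 71.1 in E15.FB.1. Of the 25, Fign, B3galt1, Gfra1, Six3os1 and Ubash3b were found in all 24 cells of E15.FB.2. Esrrg, an orphan nuclear receptor of the estrogen-related family, averaged 15.2 ± 48.6 FPKM in 13 cells of E15.FB.1 and 529 ± 347 in 23 cells of E15.FB.2, a log2 difference of −5.03. Fign, a microtubule-severing enzyme, averaged 29.2 ± 64 FPKM in 20 cells against 446 ± 278 in 24, where no cell was under 50.9. Gfra1, the receptor that binds GDNF, averaged 60.4 ± 145 FPKM in 24 cells against 518 ± 394 in all 24, whose range was 105 to 1425. For these 3 genes the clusters differed in share and in level, though the highest cells of E15.FB.1, at 335, 315 and 706 FPKM, lay within the range of E15.FB.2.

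Receptor, channel and cytoskeletal genes were among the lower ones. Gria3, an AMPA receptor subunit like Gria1, averaged 30.4 ± 76.4 FPKM in 17 cells of E15.FB.1 against 262 ± 389 in 16 cells of E15.FB.2. Cacng3, an auxiliary protein of AMPA receptors, was lower by 3.02 on the log2 scale, and Kcnmb2, an auxiliary subunit of calcium-activated potassium channels, by 3.65. Nefm, the medium neurofilament chain of maturing axons, averaged 30.7 ± 70.3 FPKM in 28 cells against 281 ± 239 in 20. Map3k1, a kinase above the JNK pathway, averaged 5.03 ± 13.5 against 77.1 ± 87.4 FPKM, and Gas1, a surface co-receptor for Shh, 3.53 ± 19.5 against 104 ± 236. Eepd1 was found in 1 cell of E15.FB.1 and 12 of E15.FB.2. Npy, the appetite-promoting neuropeptide Y, averaged 26.9 ± 196 FPKM in 3 cells of E15.FB.1, with 94.1% of the sum in 1 cell, and 1339.8 ± 3570.0 in 13 cells of E15.FB.2, with 52.9% in 1 cell. Its log2 difference of −5.59 was −10.25 on plate TH01_14.15 and −2.89 on TH01_15.14. Of these 25 genes, 9 were found in at least 40% of the E15.MB.1 cells, again without a share over all genes to set beside it.

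**Figure D2:**
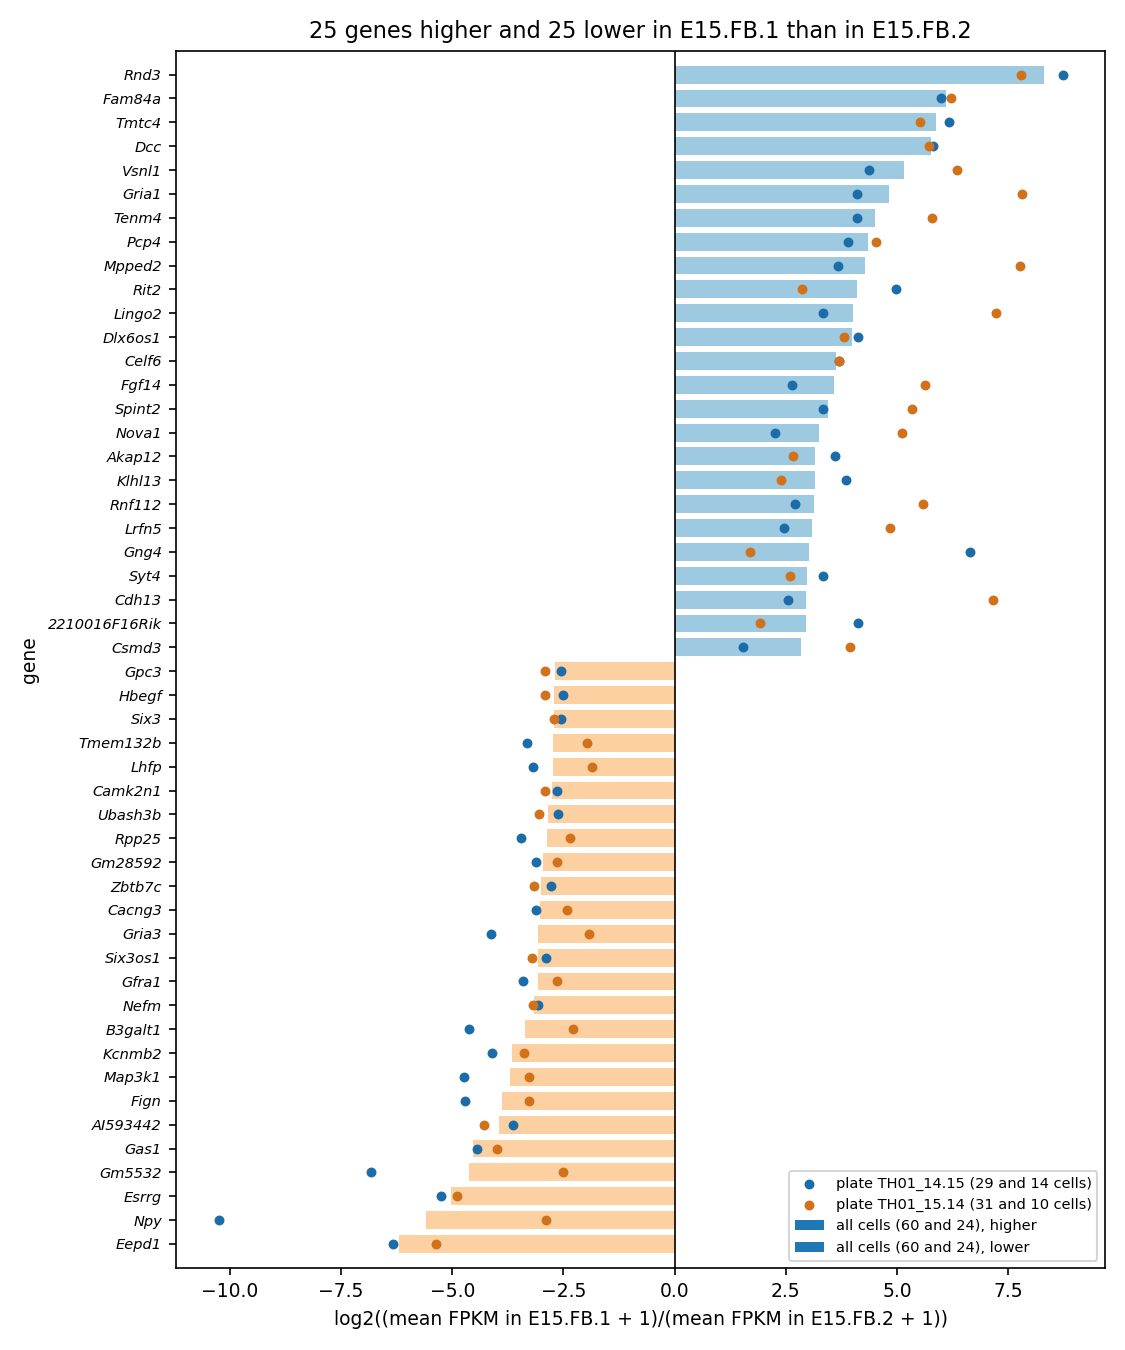
Difference between E15.FB.1 and E15.FB.2 for the 25 highest and 25 lowest genes, as log2 of the ratio of mean FPKM with 1 added; bars are all cells (60 and 24) and dots are the 2 library plates (29 against 14 cells and 31 against 10). Rnd3 leads the higher genes at 8.30 and Eepd1 the lower ones at −6.21. The genes were chosen to have the same direction on both plates.

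Several factors present in every cell of E15.FB.2 were found in part of E15.FB.1. Isl1, a LIM-homeodomain factor of developing hypothalamic and striatal neurons, was found in all 24 cells of E15.FB.2 at 1325 ± 1032 FPKM (353 to 3883, median 1001). In E15.FB.1 it was found in 29 of 60 cells (48.3%, 35.2 to 61.6%) at 392 ± 881 (0 to 5369, median 0), and 44 cells lay below the lowest cell of E15.FB.2. The log2 difference was −1.75. The nuclear receptors Nr2f1 and Nr2f2 were likewise in all 24 cells of E15.FB.2, at 341 ± 403 and 474 ± 441 FPKM, and in 30 and 35 cells of E15.FB.1 at 66.1 ± 186 and 113 ± 235. Six3, a homeobox gene of the anterior forebrain, averaged 16.3 ± 46 FPKM in 17 cells against 112 ± 93.7 in 22, and Sp8 23.5 ± 68.8 in 21 against 62 ± 59.6 in 20. Six3os1, the noncoding neighbour of Six3, was lower with it, by 3.07 against 2.71, and may share its reads. Meis2 differed less, at 522 ± 1020.4 FPKM in 27 cells against 671 ± 580.5 in 23, a log2 difference of −0.36.

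Other forebrain factors were found in E15.FB.1 and in at most 1 cell of E15.FB.2, each in a minority of the cells. Bcl11b, a zinc-finger factor of striatal and cortical projection neurons, was found in 24 cells at 29.5 ± 72.5 FPKM, and Zic1 in 20 at 11.8 ± 26.4. Both were listed at 0 in every cell of E15.FB.2, so that no fold is given. The LIM-homeodomain genes Lhx6 and Lhx8 of the ventral forebrain were found in 9 cells at 58.3 ± 208 and in 7 at 64.2 ± 239, and both were listed at 0 in E15.FB.2. Nkx2-1, which patterns the ventral hypothalamus and medial ganglionic eminence, was found in 9 cells at 41 ± 128 against 1 cell of E15.FB.2. Lhx5, Lhx1, Otp, Hmx2, Hmx3, Fezf1 and Fezf2 followed in 12, 10, 8, 8, 8, 6 and 5 cells, and all were listed at 0 in E15.FB.2. With 24 cells, a transcript at 0 may still be carried by up to 14% of such cells.

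Of the list of hypothalamic and diencephalic factors, 50 members had a mean of at least 1 in either cluster. Of these, 31 were at least 2-fold higher in E15.FB.1 and 7 lower, against 22.0% and 12.2% of all genes. Their median log2 difference was 1.80. That median came largely from factors with no value in E15.FB.2: for 19 the background was 0, and over the 31 members above 0 in both clusters the median was 0.29. POU-domain factors were among the members present in both. Pou2f2 averaged 42.5 ± 100.2 FPKM in 33 cells against 8.32 ± 22.8 in 6, and Pou3f2 10.8 ± 23.3 in 25 against 1.48 ± 5.24 in 3.

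**Figure D3:**
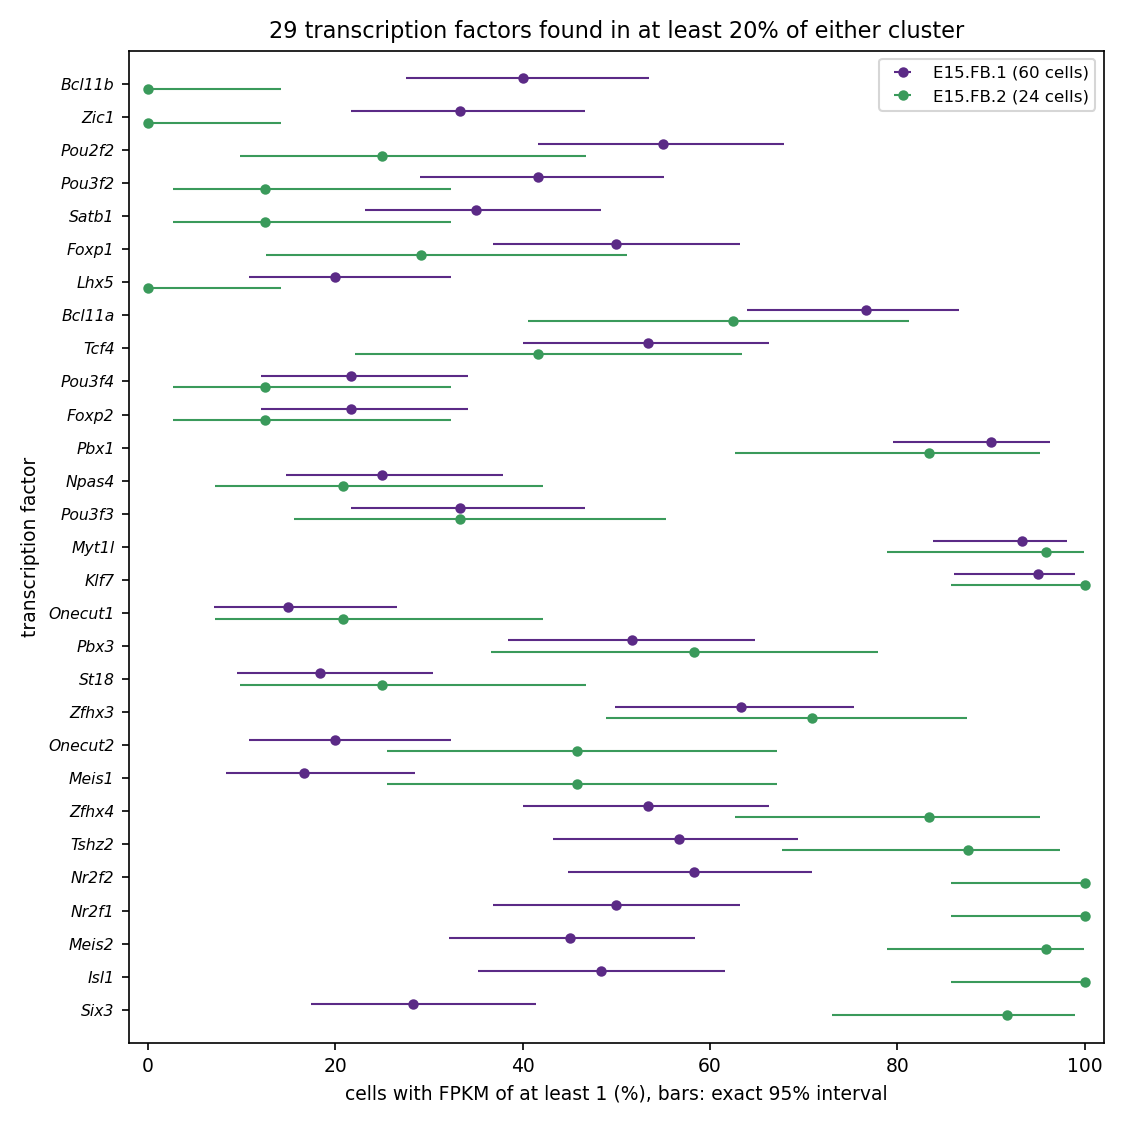
Share of cells with each of 29 transcription factors at an FPKM of at least 1 in E15.FB.1 (60 cells) and E15.FB.2 (24 cells); horizontal lines are exact 95% intervals for counting error. Isl1, Nr2f1 and Nr2f2 stand at 100% in E15.FB.2 and at 48.3 to 58.3% in E15.FB.1, while Bcl11b and Zic1 were found in 33.3 to 40% of E15.FB.1 cells and in none of E15.FB.2.

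Within E15.FB.1 cells differed by the transmitter genes they held. Gad1, the larger GABA-synthesising enzyme, was found in 44 of 60 cells (73.3%) at 296 ± 427 FPKM (0 to 2301, median 129), and Gad2 in 47 (78.3%) at 160.3 ± 271. In E15.FB.2 they were found in 21 and in all 24 cells, at 315 ± 233 and 246 ± 156, so that their means differed by only −0.09 and −0.62 on the log2 scale. Slc17a6, the vesicular glutamate transporter, was found in 15 cells of E15.FB.1 (25.0%, 14.7 to 37.9%) at 27.5 ± 69.6 FPKM and in 1 cell of E15.FB.2 at a mean of 0.312, a log2 difference of 4.44 (3.99 and 5.02 by plate). All 15 exceeded the highest cell of E15.FB.2, at 7.5.

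The 2 transmitter programmes were largely carried by different cells. Gad1 or Gad2 was found in 48 cells (80%), Slc17a6 without either in 11 (18.3%), and none of the 3 in 1 cell. Slc17a6 and a Gad gene occurred together in 4 cells. For Gad1 alone the overlap with Slc17a6 was 3 cells, which is 6.82% of the Gad1 cells and 20.0% of the Slc17a6 cells. Gad1 and Gad2, in contrast, shared 43 cells, 97.7% of the Gad1 cells and 91.5% of the Gad2 cells.

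The genes that followed Gad1 most closely over the 60 cells were the Dlx genes and Gad2. Over 8325 genes, each averaging 5 FPKM or more and found in 20 to 95% of the cells and ranked only with a correlation of at least 0.3 on each plate, the highest Spearman correlations with Gad1 were 0.63 for Dlx5, 0.63 for Dlx2, 0.62 for Gad2, 0.60 for Dlx6 and 0.59 for Dlx1. These are descriptions over cells that share their pool, plates and depth, and carry no p-value. Dlx1 averaged 362 ± 555 FPKM in 38 cells, Dlx2 242 ± 376 in 38 and Dlx5 171 ± 257 in 40. Dlx1 and Dlx2, neighbours on chromosome 2, correlated at 0.87. Of the 38 Dlx2 cells and the 40 Dlx5 cells, all held Gad1 or Gad2, and of the 15 Slc17a6 cells 3 held Dlx1, 2 held Dlx2 and 2 held Dlx5. The Dlx genes were also found in E15.FB.2, with Dlx1 in 12, Dlx2 in 11 and Dlx5 in 16 of 24 cells. Their difference between clusters was small for Dlx5 and Dlx6, at 0.59 and 0.02, and 0.89 and 1.27 for Dlx1 and Dlx2.

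Because Gad1, Gad2, Dlx1 and Dlx2 varied together over these cells, the 250 bases before their start sites are given, again from RefSeq (GRCm38.p6) on the strand of each gene with motif matches in capitals. They lie at chr2:70561879-70562128 on the plus strand for Gad1, chr2:22622077-22622326 on the plus strand for Gad2, chr2:71529195-71529444 on the plus strand for Dlx1 and chr2:71546755-71547004 on the minus strand for Dlx2. The windows of Gad1 and Dlx1 lie inside their GENCODE gene models, and that of Gad2 lies partly inside.
Gad1: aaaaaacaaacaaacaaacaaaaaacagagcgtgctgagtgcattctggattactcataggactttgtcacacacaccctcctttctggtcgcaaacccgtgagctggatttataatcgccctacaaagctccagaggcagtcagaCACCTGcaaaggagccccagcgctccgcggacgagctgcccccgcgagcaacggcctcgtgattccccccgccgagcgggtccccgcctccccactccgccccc
Gad2: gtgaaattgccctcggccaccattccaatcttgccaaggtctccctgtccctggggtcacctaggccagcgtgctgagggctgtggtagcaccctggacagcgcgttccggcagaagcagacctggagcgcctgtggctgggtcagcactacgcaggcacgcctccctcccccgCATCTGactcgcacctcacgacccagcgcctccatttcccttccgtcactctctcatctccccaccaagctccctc
Dlx1: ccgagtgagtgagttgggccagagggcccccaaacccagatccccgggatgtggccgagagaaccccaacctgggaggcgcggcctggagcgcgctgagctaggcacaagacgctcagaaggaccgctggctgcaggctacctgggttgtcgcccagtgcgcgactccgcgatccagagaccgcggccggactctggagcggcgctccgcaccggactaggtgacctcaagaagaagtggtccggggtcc
Dlx2: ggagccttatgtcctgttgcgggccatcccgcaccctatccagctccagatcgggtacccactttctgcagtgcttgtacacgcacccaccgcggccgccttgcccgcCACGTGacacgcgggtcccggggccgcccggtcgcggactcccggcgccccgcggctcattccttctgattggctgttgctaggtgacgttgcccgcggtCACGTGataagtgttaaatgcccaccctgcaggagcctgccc
None of the 4 windows held TAATTA. Gad1 held 1 E-box of the form CACCTG, Gad2 1 of the form CATCTG, Dlx2 2 of the form CACGTG and Dlx1 none. Of the 25 genes named as higher in E15.FB.1, 16 had a window, of which 14 held an E-box and 2 held TAATTA. Of the 25 lower ones, 19 had a window, of which 8 held an E-box and 2 held TAATTA. Over all windows the shares were 66.2% and 4.84%. Those shares count windows, while a named gene counted if any of its windows matched, so the 2 measures are unlike. The difference was not tested. Dlx5 and Dlx6 had no window in the table.

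Slc17a6 was followed by another set. The highest correlations were 0.77 for Nrn1, which encodes the neurite-promoting protein neuritin, 0.77 for Cacna2d1, a calcium channel subunit, 0.70 for Nxph4, a neurexin-binding secreted protein, 0.68 for the zinc transporter Tmem163 and 0.59 for the sulfotransferase Chst8. All 5 correlations exceeded 0.5 on each plate. Of the 15 Slc17a6 cells, 11 held Nrn1, 13 held Cacna2d1, 10 held Nxph4 and 12 held Tmem163. The 48 cells with a Gad gene held them in 4, 5, 4 and 8 cases. Nrn1 was listed at 0 in all of E15.FB.2. The cluster's own markers ran across this division, since Rnd3 was found in 13 of the 15 Slc17a6 cells and 39 of the 48 Gad cells, Dcc in 11 and 30, Vsnl1 in 9 and 26 and Tmtc4 in 11 and 25.

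**Figure D4:**
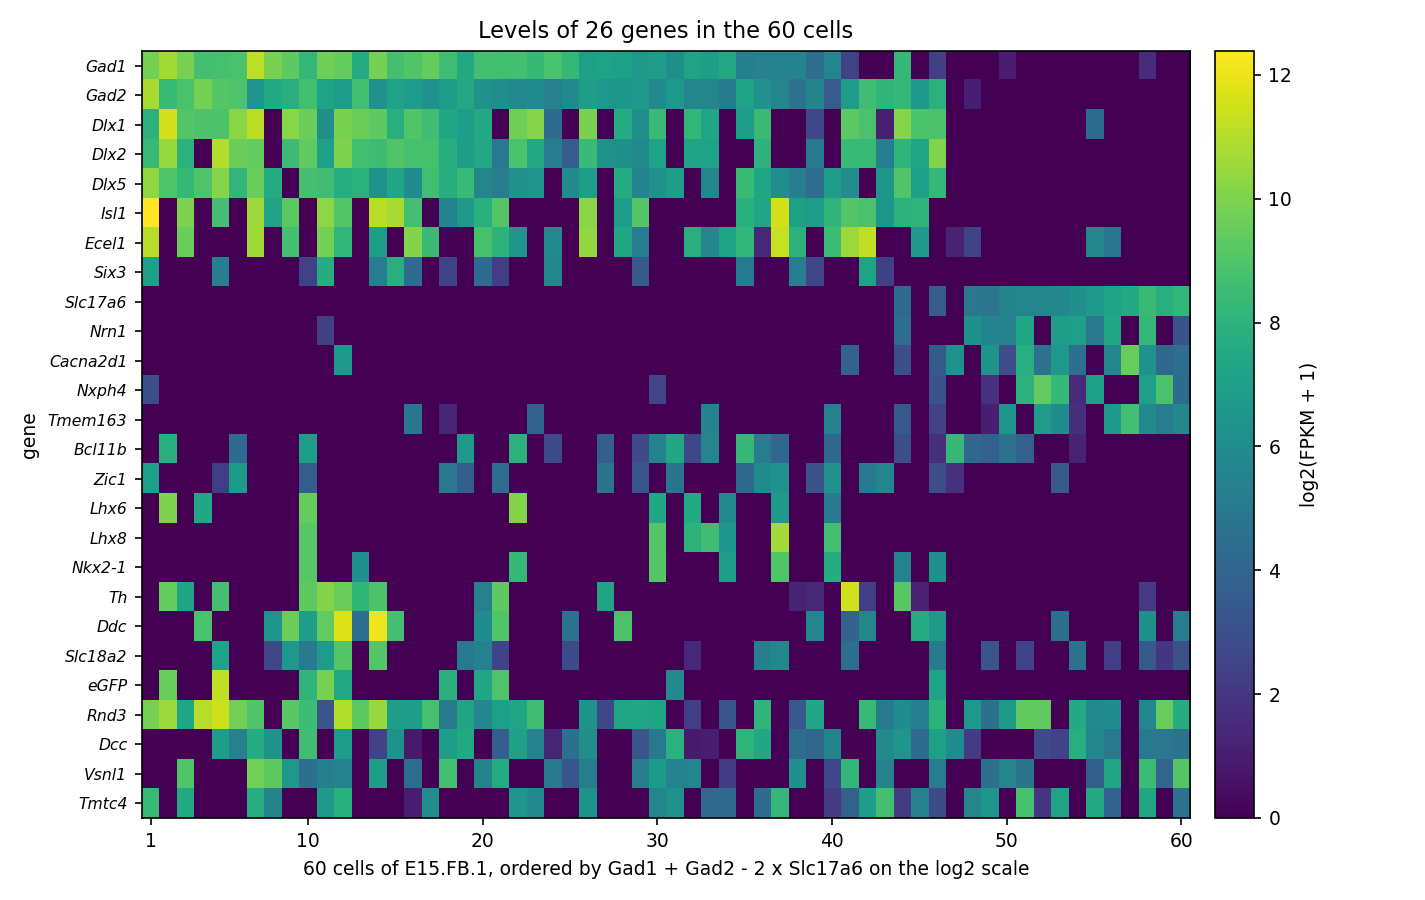
Level of 26 genes as log2(FPKM + 1) in the 60 cells of E15.FB.1, which are ordered from high Gad1 and Gad2 to high Slc17a6. The Dlx genes fill the side with Gad1 and Gad2, Nrn1, Cacna2d1, Nxph4 and Tmem163 fill the side with Slc17a6, and the 4 markers appear on both; the order of the cells was set by the Gad genes and Slc17a6 themselves.

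Isl1 was found on the GABAergic side of this division. All 29 cells held Gad1 or Gad2, and 1 of them held Slc17a6. The genes most like Isl1 included Ecel1, a membrane endopeptidase of developing neurons, at a Spearman correlation of 0.64, and Six3 at 0.49. Isl1 and Six3 were found together in 15 cells, 51.7% of the Isl1 cells and 88.2% of the Six3 cells, and none of the 17 Six3 cells held Slc17a6. Ecel1 averaged 299 ± 605 FPKM in 31 cells of E15.FB.1 and 1033 ± 943 in all 24 of E15.FB.2, as Isl1 did. Isl1 and Meis2 shared 17 cells, and Isl1 and Dlx1 24.

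Ventral forebrain factors were found in a smaller set of cells. Lhx6, Lhx8 and Nkx2-1 were found together in 5 cells, and any of them in 13, all of which held Gad1 or Gad2. Lhx6 and Lhx8 shared 6 cells, 66.7% of the Lhx6 cells and 85.7% of the Lhx8 cells. The pair of Isl1 with Meis2 and these triple counts were chosen after the values were seen.

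The genes that varied most from cell to cell included Meis2, Snhg11, Pcp4, Mpped2, Chn2, Resp18 and Scg2. They are among the 15 with the largest SD of log2(FPKM + 1) in genes found in 20 to 80% of cells on each plate. Scg2 and Resp18, both of secretory granules, averaged 289 ± 524 and 345 ± 513 in E15.FB.1, and their means differed by 0.06 and −0.37 from those in E15.FB.2.

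Transcripts of the dopamine pathway were thinly spread in both forebrain clusters, although the cells had been sorted through Th regulatory sequences. Th was found in 18 cells of E15.FB.1 (30%) at 147 ± 434 FPKM, with the highest cell at 2911 and 32.9% of the sum in that cell, and in 9 cells of E15.FB.2 (37.5%) at 110.0 ± 177. Its log2 difference of 0.42 was 1.55 on plate TH01_14.15 and −1.97 on TH01_15.14, so it had no common direction. Ddc, the next enzyme, was found in 21 cells at 198 ± 706 against 5 at 26.1 ± 63, and the vesicular monoamine transporter Slc18a2 in 23 at a mean of 29.4 against 5 at 16.9. Th, Ddc and Slc18a2 occurred together in 8 cells (13.3%), and any of the 3 in 36. The plasma membrane dopamine transporter Slc6a3 was found in 3 cells at a mean of 0.961 and Gch1, which supplies the cofactor of Th, in 3. All 18 Th cells held Gad1 or Gad2, 13 held Isl1, 12 held Ddc and 2 held Slc17a6. Of the 12 dopamine genes with a mean of at least 1, 6 were at least 2-fold higher in E15.FB.1 and none lower. The shares over all genes were 22.0% and 12.2%. Of the 6, Drd1, Maob and Gch1 were listed at 0 in E15.FB.2, so they could only count as higher. The list median was 1.08, and 0.52 over the 9 members above 0 in both clusters. The higher ones included Maoa, which breaks down monoamines, at 21.5 ± 38.5 FPKM in 25 cells against 1.93 ± 9.45 in 1.

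The reporter transcript itself was rare. eGFP was found in 10 cells of E15.FB.1 (16.7%) at 92.2 ± 338 FPKM and in 3 of E15.FB.2 at 23.8 ± 86.9, while in the midbrain cluster E15.MB.2 it was found in 11 of 20 cells at 2488 ± 4128. All 10 eGFP cells held Gad1 or Gad2, and 7 also held Th, which is 70.0% of the eGFP cells and 38.9% of the Th cells. The fluorescence used for sorting was measured on the protein.

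Axon guidance genes differed in both directions. In the family of Dcc, 11 members had a mean of at least 1 in either cluster. Of these, 6 were at least 2-fold higher and 2 lower, against 22.0% and 12.2% of all genes. The median was 1.06, but −0.29 over the 7 members above 0 in both clusters. Unc5a, a repulsive netrin receptor, was higher by 1.94, at 29.7 ± 45.3 FPKM in 26 cells against 7 ± 16.7 in 7. Unc5c, of the same family, was lower, at 24.0 ± 45.6 in 26 cells against 102 ± 149 in 20. The netrin Ntn1 was found in 8 cells at 6.13 ± 21.7 and listed at 0 in E15.FB.2, and the membrane-bound Ntng1 was lower by 2.52. The Slit receptors split in the same way. Robo1 averaged 37.5 ± 50.4 FPKM in 44 cells against 9.85 ± 18.8 in 8, and Robo2 63.5 ± 125 in 36 against 249.9 ± 207 in 22. The ligand Slit3 was lower by 2.44.

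Semaphorin, ephrin and migration genes held members on both sides. Of 21 semaphorin pathway genes 4 were at least 2-fold higher and 2 lower, near the 22.0% and 12.2% of all genes. Their median was 0.13, and −0.15 and 0.44 by plate. The receptor Nrp1 led the higher ones, at 76.2 ± 170.5 FPKM in 40 cells against 14.8 ± 36.2 in 7. Of 19 ephrins and Eph receptors 9 were higher and 2 lower (median 0.78). Epha5 averaged 123 ± 214 FPKM in 40 cells against 18.4 ± 44.4 in 8, Epha4 was higher by 3.07 and Epha10 lower by 2.41. Among 17 genes of neuronal migration 3 were higher and 2 lower, again near the shares over all genes. The lower ones included Erbb4, the neuregulin receptor, at 19.1 ± 51.4 against 117 ± 189.

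Adhesion genes leaned towards E15.FB.1. Of 20 cadherins and protocadherins 11 were at least 2-fold higher and 2 lower, against 22.0% and 12.2% of all genes. Their median was 1.55, and 0.97 where both clusters were above 0. Cdh13 averaged 204 ± 432 FPKM in 34 cells against 25.4 ± 75.4 in 4, and Pcdh11x 79.3 ± 219 in 22 against 4.80 ± 11.8 in 5. Cdh6 went the other way, at 27.4 ± 60 in 19 cells against 107 ± 142 in 15, and Pcdh9 was lower by 1.57. The relatives of Tmtc4 were partly with it: Tmtc2 averaged 20.9 ± 39.1 FPKM in 25 cells against 2.82 ± 13.8 in 1, Tmtc1 was found in 7 cells and listed at 0 in E15.FB.2, and Tmtc3 differed by 0.33. Of the Rnd3 relatives, Rnd1 was found in 3 cells and Rnd2 differed by −0.85. The actin regulator Rhob was lower by 1.18.

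Calcium sensors were mostly higher or within 2-fold. Of 15 members with a mean of at least 1, 9, Vsnl1 among them, were at least 2-fold higher in E15.FB.1 and none lower. The shares over all genes were 22.0% and 12.2%, and the list median was 1.08. Ncs1, Ncald and Hpcal1 had values of −0.64, −0.57 and −0.53. Hpca, which encodes hippocalcin, averaged 67.3 ± 122 FPKM in 32 cells against 17.8 ± 46.4 in 6. The calcium buffers Calb1 and Calb2 were each found in 15 cells, at 42.3 ± 128 and 74.3 ± 319.9, and each in 1 cell of E15.FB.2; 53% of the Calb2 sum came from 1 cell.

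Receptor subunits differed within families. Of 28 GABA and glutamate receptor subunits 12 were at least 2-fold higher and 6 lower, against 22.0% and 12.2% of all genes. Their median of 0.48 was −0.14 on plate TH01_14.15 and 1.54 on TH01_15.14, so it had no common direction. Among the alpha subunits of GABA-A receptors, Gabra2 averaged 53.9 ± 77.6 FPKM in 38 cells against 8.12 ± 31 in 4, and Gabra5 75.6 ± 129.8 in 29 against 5.41 ± 19.9 in 3. Gabra3 was lower, at 113 ± 167 in 41 cells against 283 ± 233 in 20. Among AMPA receptor subunits Gria1 was higher, Gria3 and Gria4 lower by 3.06 and 1.21, and Gria2 close, at 334 ± 433 FPKM in all 60 cells and 286 ± 272 in 22. Grik2, a kainate receptor subunit, was lower by 1.56.

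Channel genes differed in both directions. Of 21 sodium and calcium channel genes 2 were higher and 3 lower, against 22.0% and 12.2% of all genes, with a median of −0.08. The higher ones were Cacna2d1, by 3.52, and the T-type channel Cacna1g, by 3.18, and the lower ones included Cacna2d3, at 97.0 ± 221 FPKM in 25 cells against 281 ± 303 in 23. Of 22 potassium channel genes 8 were higher and 4 lower (median 0.57, and 0.71 and −0.04 by plate), the lower ones including Kcnma1, the calcium-activated channel that Kcnmb2 joins, by 2.31.

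Neuropeptide genes were expressed by few cells, and their means rest on those cells. Of 27 members with a mean of at least 1, 14 were at least 2-fold higher in E15.FB.1 and 6 lower. The shares over all genes were 22.0% and 12.2%. When the top cell per gene was dropped from both clusters, 11 members were higher and 2 lower. With all cells the list median was 1.30, and −0.05 over members above 0 in both clusters. Galanin (Gal) was found in 9 cells at 231 ± 1109 FPKM, with 58.4% of the sum in 1 cell, and in 1 cell of E15.FB.2. Of those 9 cells, 6 held Gad1 or Gad2 and 5 held Th. Cartpt was found in 7 cells, and Nts and Penk in 5 each, and all 3 were listed at 0 in E15.FB.2. Sst, which encodes somatostatin, was found in 3 cells at 54.6 ± 245 against 10 at 498 ± 970.2. Pomc was found in 5 cells of E15.FB.1 at a mean of 2.28 and in 2 of E15.FB.2, where 1 cell reached 10263; with the highest cell of each cluster left out its log2 difference changed from −7.03 to 0.30. Pnoc was found in 28 of 60 and in 12 of 24 cells.

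**Figure D5:**
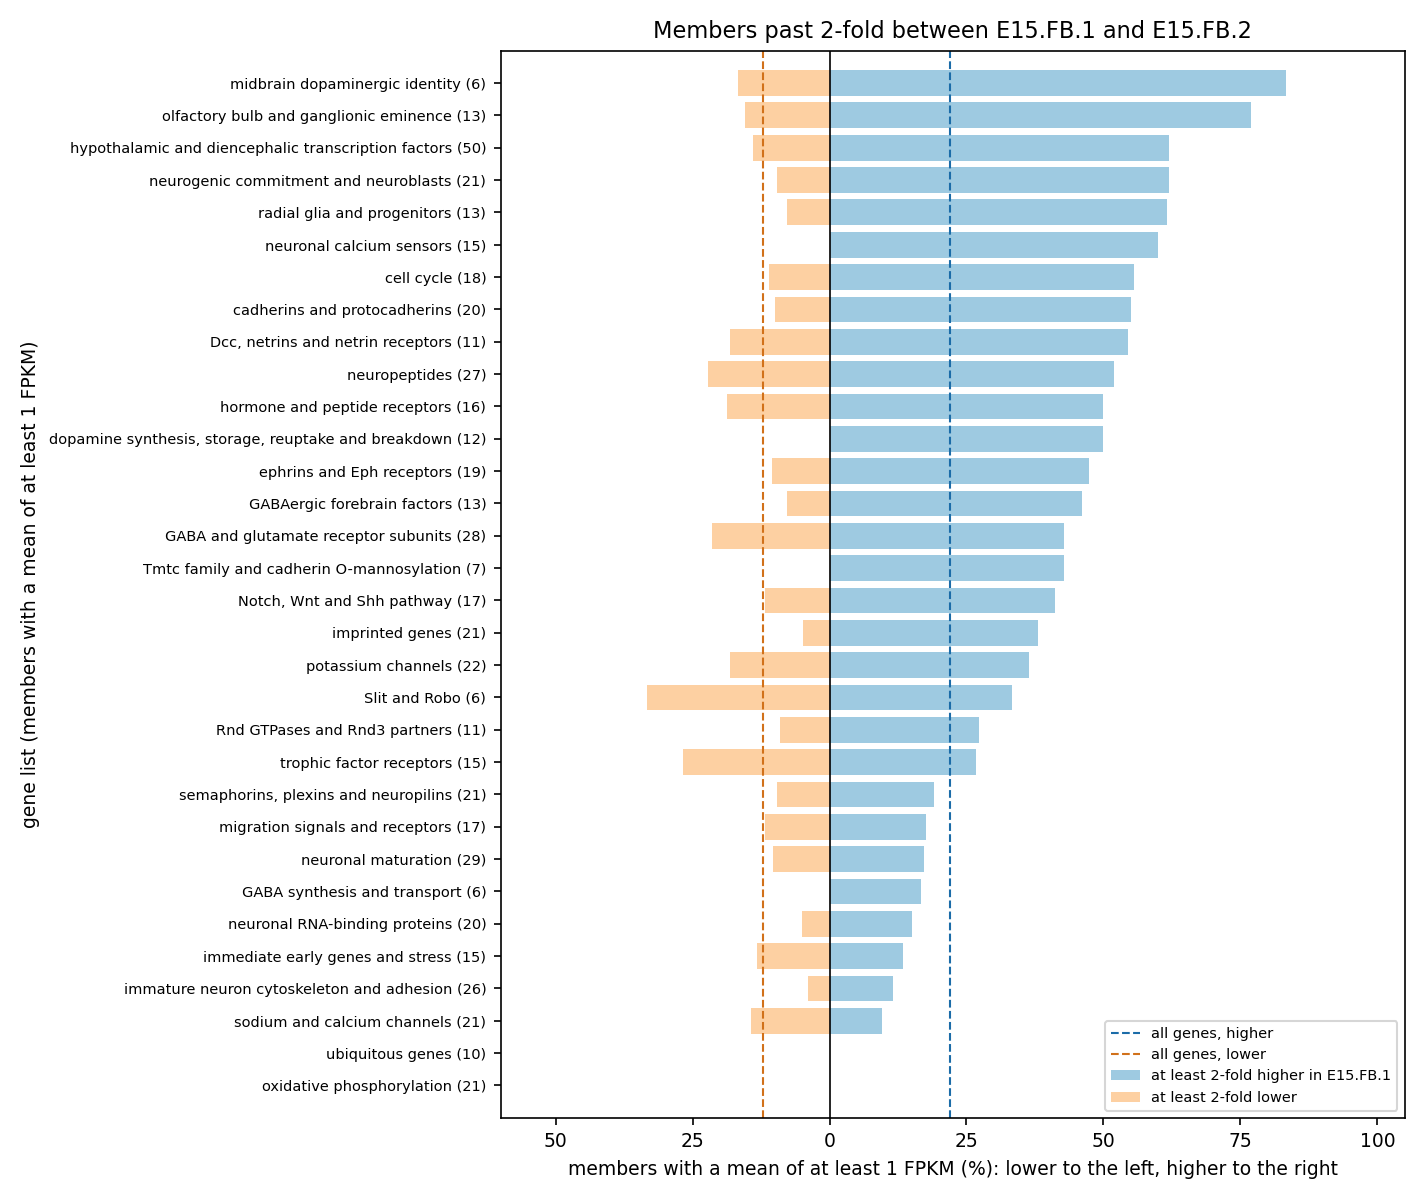
Share of the members of 32 gene lists at least 2-fold higher or lower in E15.FB.1 than in E15.FB.2, for lists with 5 or more members at a mean FPKM of at least 1; dashed lines mark the shares over all 14020 genes (22.0% and 12.2%). Cadherins, calcium sensors and forebrain factors lie right of the line for higher genes, and oxidative phosphorylation and ubiquitous genes have no member past 2-fold on either side.

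Gene lists of neuronal maturity had medians near 0, while single members differed in both directions. All 60 cells expressed Tubb3, Dcx and Elavl3. Of 26 genes of the young neuron's cytoskeleton and adhesion 3 were at least 2-fold higher and 1 lower. The shares over all genes were 22.0% and 12.2%, and the list median was −0.03. Gap43, a growth cone protein, averaged 1836 ± 1820.4 FPKM in 59 cells against 563 ± 729 in 17, Mapt 1013 ± 651 against 489 ± 405 and Cntn1 54.4 ± 97.1 against 13.2 ± 28.6. Chl1, an adhesion molecule of the L1 family, was lower, at 209.9 ± 302 against 681 ± 459. Of 29 maturation genes 5 were higher and 3 lower (median 0.06, and −0.34 in cells of 4500 to 6000 genes). The higher ones included Camk2a, at 80 ± 121 FPKM in 39 cells against 13.5 ± 27.8 in 5. The lower ones included Nefm, by 3.15. Sox4, a factor of newborn neurons, averaged 116 ± 137 FPKM in 57 cells against 343 ± 222 in 24, while its relative Sox11 was found in every cell of both clusters at means of 157 and 151. Oxidative phosphorylation genes (21) and ubiquitous genes (10) had no member at least 2-fold apart.

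The remaining lists are given by count, to be read against 22.0% higher and 12.2% lower over all genes. Of 13 GABAergic forebrain factors 6 were at least 2-fold higher and 1 lower (median 0.89), and the higher ones included Etv1, found in 12 cells at 42.5 ± 146 FPKM and listed at 0 in E15.FB.2. Of 6 genes of GABA synthesis and transport 1 was higher and none lower (median −0.22). The list for olfactory bulb and ganglionic eminence, which shares Nkx2-1, Lhx6, Lhx8 and Six3 with the list of hypothalamic factors, had 10 of 13 members higher and 2 lower. For 6 of the 13 the background was 0, so they could only count as higher. The list median was 1.44, and 1.30 over the 7 members above 0 in both clusters. Of 15 genes of midbrain dopaminergic identity only 6 had a mean of at least 1 in either cluster, and En1, En2 and Foxa2 were listed at 0 in both. Of the 6, 5 were higher and 1, Gfra1, lower, but 2 were higher when the top cell per gene was dropped. Pitx3 and Aldh1a1 were listed at 0 in E15.FB.2, so they could only count as higher. Slc10a4, a transporter-like protein of monoaminergic neurons, averaged 140.4 ± 424 FPKM in 24 cells against 24.3 ± 56.5 in 7, whereas 91.0% of the Nr4a2 sum came from 1 cell. Of 16 hormone and peptide receptor genes 8 were higher and 3 lower, or 6 and 1 without those top cells. The median was 0.83, but 0.01 over the 13 members above 0 in both clusters. They were led by Calcr and Asb4, at 81.4 ± 337 in 5 cells and 154 ± 505 in 17. Of 15 trophic receptor genes 4 were higher and 4 lower (median −0.36). On plates TH01_14.15 and TH01_15.14 the median was −0.94 and 1.31, with no common direction. Cntfr was lower by 2.08. Among progenitor genes 8 of 13 were higher and 1, Vim, lower, and among neurogenic genes 13 of 21 were higher and 2 lower, with medians of 1.87 and 1.50. Over members above 0 in both clusters these were 0.80 and 0.36. Of 20 neuronal RNA-binding protein genes 3 were higher and 1, Rbfox1, lower (median −0.22).

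Imprinted genes and secreted signals showed further differences. Of 21 imprinted genes 8 were higher and 1 lower (median 0.53), against 22.0% and 12.2% of all genes. Dlk1, a noncanonical Notch ligand, averaged 116 ± 256 FPKM in 23 cells against 2.25 ± 11.0 in 1. Rian, a noncoding RNA of the same imprinted region, averaged 132 ± 139 in 55 cells against 34.8 ± 56.7 in 9, and Nap1l5 was higher by 1.98. The lower member was Cdkn1c, by 1.10. Wnt5a, a noncanonical Wnt ligand, was found in 3 cells at 0.617 ± 3.40 against 7 at 32.7 ± 56.2. Of the 15 immediate early and stress genes 2 were higher and 2 lower, and Jun averaged 155 ± 305 FPKM in 44 cells against 421 ± 351 in 22.

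Markers of other cell types were at or near 0. The summed FPKM of 7 neuron markers ranged from 2021 to 23207 per cell with a median of 6533. Neural progenitor markers summed to 0 to 405 with a median of 19.1, against 0 to 416 with a median of 19.9 in E15.FB.2. These similar sums joined markers that differed in opposite directions. Vim was found in 21.7% of E15.FB.1 cells and 54.2% of E15.FB.2 cells. Fabp7 was found in 9 cells of E15.FB.1 and 1 of E15.FB.2, and Sox2, given below, also in a larger share of E15.FB.1. Nes, Hes1 and Hes5 were found in 9, 3 and 3 cells of E15.FB.1 and listed at 0 in E15.FB.2. The medians were 0 for dividing cells (highest 262), astrocytes (237), oligodendrocyte lineage (470.1), microglia (1.26), endothelium (13.5) and red blood cells (282). Gfap, Aldh1l1 and Slc1a3, Olig1, Olig2, Sox10 and Pdgfra, 6 of 7 microglial markers and Cdk1 were listed at 0 in all 60 cells, and Mki67, Top2a, Ccnb1 and Birc5 were each found in 1 cell. Of 18 cell cycle genes with a mean of at least 1, 10 were at least 2-fold higher and 2 lower. The shares over all genes were 22.0% and 12.2%. The median of the cell cycle genes was 1.41, but −0.08 over members above 0 in both clusters. The largest value among them, for Ccnd2, came to 97.2% from 1 of 5 cells. The progenitor factor Sox2 was found in 14 cells at 7.43 ± 23.5 against 1 at 0.621.

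The comparison with E15.MB.1 shares the 60 cells of E15.FB.1 with the forebrain comparison, and its 68 midbrain cells had a median of 6398.5 genes in the labels. Of 14371 genes, 1578 (11.0%) were at least 2-fold higher in E15.FB.1 and 1231 (8.57%) lower. The 10 highest by the same rule were Dlx6os1, Dlx6, Dlx5, Dlx1, Gm14204, Dlx2, Ecel1, Gad2, Islr2 and Gad1, by 4.54 down to 2.19 on the log2 scale. Dlx5, for example, averaged 12.2 ± 55.7 FPKM in 7 of the 68 midbrain cells. The 10 lowest were led by transcription factors of the midbrain, Pax5 at −6.61, Lhx9 at −5.83 and Evx1 at −5.20, followed by Npnt, Sorcs2, Nrn1, Ebf1, Phlda1, Tmem163 and AI593442. Pax5 averaged 0.883 ± 4.98 FPKM in 2 cells of E15.FB.1 and 182 ± 261 in 37 of E15.MB.1. Nrn1 and Tmem163, which followed Slc17a6 within E15.FB.1, were found in 50 and 47 of the 68 midbrain cells, where Slc17a6 was found in 55 (80.9%) at 137 ± 169 FPKM.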

How the data were processed

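Single neurons sorted from Th:EGFP embryos at embryonic day 15.5 were sequenced as Smart-Seq2 libraries with 20 cycles of preamplification and 14 of enrichment, per the labels' protocols. The authors deposited 1 table of FPKM values per gene and cell, made with HISAT2 and Cuffnorm on mm10 per the submitters' processing notes; tool versions, the annotation release, the strand setting and how Cuffnorm scaled the cells are not given in the sources used here. FPKM are not counts, so read depth is unknown, and the number of genes per cell in the labels stands in for it. That number correlated with the genes at FPKM of at least 1 in the columns (0.996 over 92 cells and 0.999 over 94 cells on the 2 plates). It was smaller, with medians of 5859.5 against 6250.5 in E15.FB.1 and 5028 against 5370.5 in E15.FB.2. No forebrain columns were identical. Cells took their cluster from the label, and the 9 forebrain cells that failed quality control were left out; removal of doublets is not stated and none was attempted.

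Features were named through GENCODE M21: 28636 of 28952 had a symbol, 20508 with the same identifier version, and 14 that share a symbol stayed out of the gene lists. Overlapping and antisense genes, such as Dlx6os1, Dlx1as and Six3os1, may share reads. Differences are log2((mean + 1)/(mean + 1)) FPKM over cells, for genes averaging 1 or more in either cluster. Genes named against E15.FB.2 are the 25 highest and 25 lowest with a mean of at least 20 and found in at least 50% of cells in the higher cluster, with 1 direction on both plates, in the mean of logs and without the highest cell of each cluster. Against E15.MB.1 they are the 10 highest and 10 lowest by that rule. Within E15.FB.1 they are the 15 with the largest SD of log2 values, and from each of 35 gene lists the 3 largest and 3 smallest differences, markers and genes whose role orders the account. Th and eGFP were always named. The members and lists were chosen with earlier results of these data known; pairs of genes outside the plan and the upstream windows were added after the values were seen. No test was made between clusters, because cells of 1 pool are not replicates. Intervals of shares are exact Clopper-Pearson at 95%. Calculations used Python 3.11.15, numpy 2.4.6, pandas 2.3.3, scipy 1.17.1 and matplotlib 3.10.9, and the calculations were tested on simulated data. The alternatives were other pseudocounts, filters, scalings, detection limits, each plate alone, the highest cell left out and a fixed range of genes per cell. A few genes that meet these rules are not reported here.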

Additional observations from a re-analysis of the deposited data

How the results depend on the processing

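Of the 14020 genes, 3085 were at least 2-fold higher and 1717 lower, so 64.2% of the differing genes were higher. Counts changed by over 1.5 times with a pseudocount of 10 FPKM (721 and 490), with the mean of log2 values (1712 and 581, 74.7% higher) and with a minimum mean of 10 FPKM (1214 and 1029, 54.1% higher). Without each gene's highest cell 3201 were higher and 871 lower (78.6% higher), and with cells of 4500 to 6000 genes 2672 and 2448 (52.2% higher). The median of all genes, 0.02, was 0.18 with the mean of logs, 0.23 on plate TH01_15.14 alone and 0.20 without the highest cell. A pseudocount of 0.1, no filter, rescaled cells and each plate alone gave 2958 to 4368 higher and 1444 to 2086 lower genes. The 50 named genes kept their direction with rescaled cells and in cells of 4500 to 6000 genes; for the plates, the mean of logs and the highest cell that was a condition of choice. Of 35 list medians, 16 turned under at least 1 alternative and 10 of these on 1 plate alone. Those above 1 turned for the Dcc and netrin list with a minimum mean of 10 FPKM (−0.29, from 1.06) and for neuropeptides in cells of 4500 to 6000 genes (−0.52, from 1.30); the causes were not tested. The 13 shares checked kept within their intervals at detection limits of 0.1 and 5 FPKM. No paired analysis was possible because no test was made and the cells share 1 pool of embryos. Without depth or replicates, a transcript listed at 0 in 24 cells cannot be told apart from one carried by up to 14% of such cells.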
